A study of Pan troglodytes with 8 samples.

Results

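Ribosomal protein genes encode the protein part of the cytosolic ribosome and are read in every growing cell, which makes their promoters a natural baseline for a comparison of cell types. Chromatin accessibility at these promoters was examined in cells sorted from chimpanzee cerebral organoids. The regions were chosen by name and place alone: the closest gene had to carry a name of the RPL, RPLP or RPS series (RPL19, RPLP1, RPS29 and the like, without numbered pseudogenes and without the RPS6K kinases), and the region had to lie within 1000 bp of that gene. Of 218080 regions in the deposited table, 50 met the rule, 1 for each of 50 genes, all at a distance of 0 bp. Of these, 2 regions had no chimpanzee identifier and no reads. The remaining 48, 27 for the large subunit and 21 for the small subunit, all passed the filter on low counts and are the promoters described here.

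The assay was ATAC-seq on bulk sorted cells: a transposase cuts and tags chromatin where it is open. The organoids came from a single induced pluripotent stem cell line, SandraA, and were in week 8 of culture, so that every group shares 1 genotype and no treatment was applied. Cell sorting gave BCL11B-positive neurons (N), basal intermediate progenitors (bIP), basal radial glia (bRG) and apical radial glia (aRG), with 2 libraries each and 24913928 to 34845193 reads in regions per library. Radial glia are the neural stem cells of the developing cortex, the apical kind at the ventricle and the basal kind away from it; intermediate progenitors divide to give neurons. Whether libraries 1 and 2 of a population are separate cultures is not stated in the labels, so p-values cover only the spread between these libraries, which may be technical.

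Regions within 1000 bp of marker genes went with the sorted identities in part. In N against aRG by edgeR, 7 of 9 regions of radial glial markers fell and none rose, and 6 of 11 regions of neuronal markers rose while 3 fell. At the wider of the SOX2 regions, SOX2 being a transcription factor of neural stem cells, the mean of the 2 libraries was 9.93 CPM (read counts scaled to the size of the library) in N, 30.1 in bIP, 63.2 in bRG and 70.9 in aRG. The narrower SOX2 region went another way, with means of 6.95 CPM in N, 10.6 in bIP, 5.58 in bRG and 6.41 in aRG, and it rose in bIP against aRG. At the wider region of NEUROD2, a transcription factor of young neurons, the mean was 42.2 CPM in N, 30.7 in bIP, 4.14 in bRG and 3.97 in aRG. EOMES, the defining factor of intermediate progenitors, was highest in bIP, with 60.0 CPM against 31.5 in N, 32.3 in bRG and 39.2 in aRG. Of 5 regions of intermediate progenitor markers, 3 rose in bIP against aRG by edgeR and 0 fell. Among the rest, HES6 had 47.3 CPM in bIP against 51.0 in aRG, and PPP1R17 had 10.1 in bIP, 10.0 in bRG and 9.88 in aRG. The 3 neuronal marker regions that fell were 2 at MAP2 and 1 at BCL11B, whose protein marks the sorted neurons; that BCL11B region had 5.62 CPM in N, 9.43 in bIP, 11.9 in bRG and 12.8 in aRG, and the other had 21.3 in N, 22.7 in bIP, 18.2 in bRG and 19.4 in aRG. All 4 regions of basal radial glial markers had a lower mean in bRG than in aRG and none was called, as was no region in the table. Markers of other cell types, such as mesenchyme and endothelium, had regions at 8 of 12 genes with none at 0, and their summed level was 48.3 to 55.3 CPM in N, 67.9 to 69.3 in bIP, 71.2 to 73.8 in bRG and 82.7 to 88.7 in aRG; their part in the results was not tested. A change in bulk accessibility cannot tell a smaller share of cells with the site open from a site that is less open in every cell.

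A ribosome has a large and a small subunit, and their proteins are made in matched amounts together with the ribosomal RNAs. Most of these genes are known for short promoters free of a classical TATA box, with a pyrimidine-rich start site, and much of the control of their output acts on translation of the messenger RNA through the mTOR pathway. Many also have processed pseudogenes elsewhere in the genome. Those copies carry exons, and how reads that match several sites were placed is not given in these sources, so counts over the exonic edge of a region are less certain than counts upstream.

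Of 79 cytosolic ribosomal protein genes in a standard list, 47 were among the measured promoters. Another 19 were the closest gene of no region, and RPL3, RPL31, RPL37A and RPS26 were named only for regions farther away. Another 2 lacked a chimpanzee identifier, the 4 genes of the X chromosome were also the closest gene of no region analysed here, and 3 have names that the rule does not take. RPS27L, a paralogue of RPS27 that p53 is known to induce in human cells, is the 1 measured promoter outside that list. The nearest region of RPL10L lay 8684 bp away and that of RPL39L 15195 bp away, so neither entered. Just outside the limit of 1000 bp, a region 1960 bp from RPL6 had 0.839 CPM, one 1982 bp from RPL38 had 1.97 CPM and one 2372 bp from RPS9 had 1.88 CPM, all far below any of the 48 promoters.

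The promoters were strongly and evenly open. Their mean level over the 8 libraries had a median of 27.99 CPM, with the lowest at 13.8 and the highest at 50.2 CPM. The regions had a median width of 1396.5 bp, close to the 1363 bp of other regions within 1000 bp of a gene (called other gene-start regions below). Per kilobase of region the median was 19.96 CPM at the ribosomal protein promoters, against 8.69 CPM at other gene-start regions and 2.30 CPM over all regions. All 48 lay above the median of the other gene-start regions. The authors' peak lists, 1 for each population, gave the same picture: all 48 regions held a peak in each of the 4 lists, as did 60.4% of 22082 other gene-start regions. Within each list the strongest peak of a ribosomal protein promoter had a median −log10 q-value of 1078 in N, 944 in bIP, 1065 in bRG and 934 in aRG, against 537 in N, 442 in bIP, 563 in bRG and 483 in aRG at other gene-start regions.

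**Figure D1:**
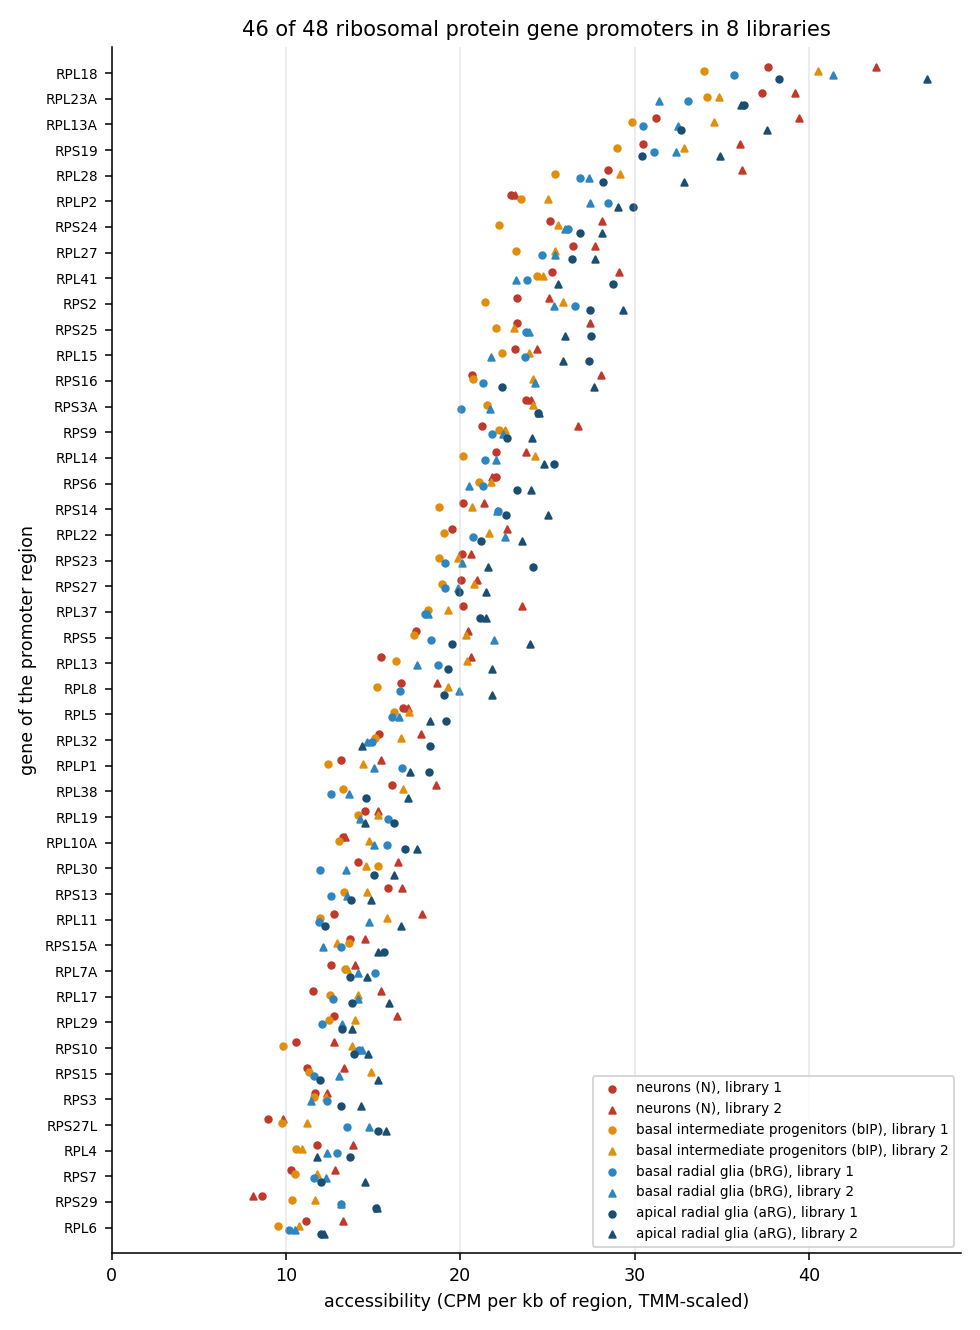
Accessibility of 46 of the 48 promoters, as TMM-scaled CPM per kilobase of region (horizontal axis), with 1 row for each gene in order of the mean and 1 point for each library (colour for population, circle for library 1 and triangle for library 2). The mean level of the promoters shown spans 11.2 to 39.8 CPM per kilobase, while the 8 points of most genes lie close together; RPS29 and RPS27L near the bottom are the widest spread on a relative scale.

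Level per kilobase differed more between genes than between cell types. Among the highest were RPL18, RPL23A and RPL13A, with 39.8, 35.3 and 33.5 CPM per kilobase. RPL23A sits at the exit of the tunnel through which the new protein leaves the large subunit, and RPL13A is known in human cells to leave the ribosome after interferon treatment and to silence selected messenger RNAs. At RPL23A (chr17:27530464-27531662 in panTro6, 1199 bp) the 2 libraries gave 44.7 and 47.0 CPM in N, 40.9 and 41.8 in bIP, 39.6 and 37.7 in bRG, and 43.5 and 43.3 in aRG. No pair of populations overlapped, with N highest and bRG lowest, and the log2 fold change of N against aRG was 0.08 ± 0.09 in edgeR (adjusted p = 0.455). The lowest were RPL6, RPS29, RPS7, RPL4 and RPS27L, with 11.2, 11.9, 12.0, 12.2 and 12.4 CPM per kilobase. Width and level per kilobase ran in opposite directions (Spearman rho −0.45 over the 48 promoters, which share the same libraries), while width and CPM ran weakly in the same direction (rho 0.19), so the order per kilobase is not the order by CPM.

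Across the 4 populations the promoters moved little. The distance between the highest and lowest population mean had a median of 0.207 on the log2 scale at the ribosomal protein promoters, against 0.672 at other gene-start regions and 1.96 over all regions. Other housekeeping groups were close to it, with medians of 0.246 at proteasome subunits, 0.251 at translation factors, 0.272 at ribosome biogenesis genes and 0.275 at mitochondrial ribosomal proteins. For 46 of 48 the distance was under 0.5, and the exceptions were RPS29 and RPS27L. The spread between the 2 libraries of a population, as a median SD of log2 CPM, was 0.106 at these promoters, 0.165 at other gene-start regions and 0.360 over all regions, which also differ in level: a raw count at a ribosomal protein promoter was 325 to 1656 per library, with a median of 761.5 and thus a counting error of 3.62%. The highest population mean was in N for 15 promoters, in bIP for none, in bRG for 1 and in aRG for 32.

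RPL19, a large-subunit protein often used as a reference gene, was the flattest. It had 17.9 and 18.8 CPM in N, 17.4 and 18.8 in bIP, 19.5 and 17.5 in bRG, and 19.9 and 17.9 in aRG, and the populations overlapped in every pair. RPS27, a zinc-binding small-subunit protein, came next, with 18.1 and 19.0 CPM in N, 17.1 and 18.8 in bIP, 17.3 and 18.0 in bRG, and 18.0 and 19.4 in aRG, with bRG just below N and aRG. RPS19, the gene most often mutated in Diamond-Blackfan anaemia, followed at a higher level, with 47.6 and 56.3 CPM in N, 45.2 and 51.3 in bIP, 48.6 and 50.6 in bRG, and 47.5 and 54.5 in aRG. At RPS19 library 2 was the higher in all 4 populations, and in N, bIP and aRG the step between libraries was larger than that between any of the population means.

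Neurons were then set against apical radial glia, the ends of the lineage, with 1 edgeR quasi-likelihood model of all 8 libraries and p-values adjusted over all 198227 regions tested. Of the 48 promoters, 5 fell in N, none rose and 43 did not pass an adjusted p of 0.05. No library alone decided RPS29 or RPS27L, but without library 2 of bIP, which changes the TMM reference, 20 fell, and without library 2 of aRG 3 fell. In the same test 69% of all regions passed (37.2% rose and 31.7% fell), and 12066 of 21463 other gene-start regions passed, or 56.2%. The median log2 fold change was −0.07 at the ribosomal protein promoters, −0.23 at other gene-start regions and 0.13 over all regions. The quartiles were −0.19 and 0.01 at these promoters, against −0.72 and 0.18 at other gene-start regions. Both N libraries lay below both aRG libraries at 17 promoters, above them at 2 and overlapped with them at 29; over all regions 39.7% lay below and 44.9% above, and over other gene-start regions 55.7% and 23.8%.

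**Figure D2:**
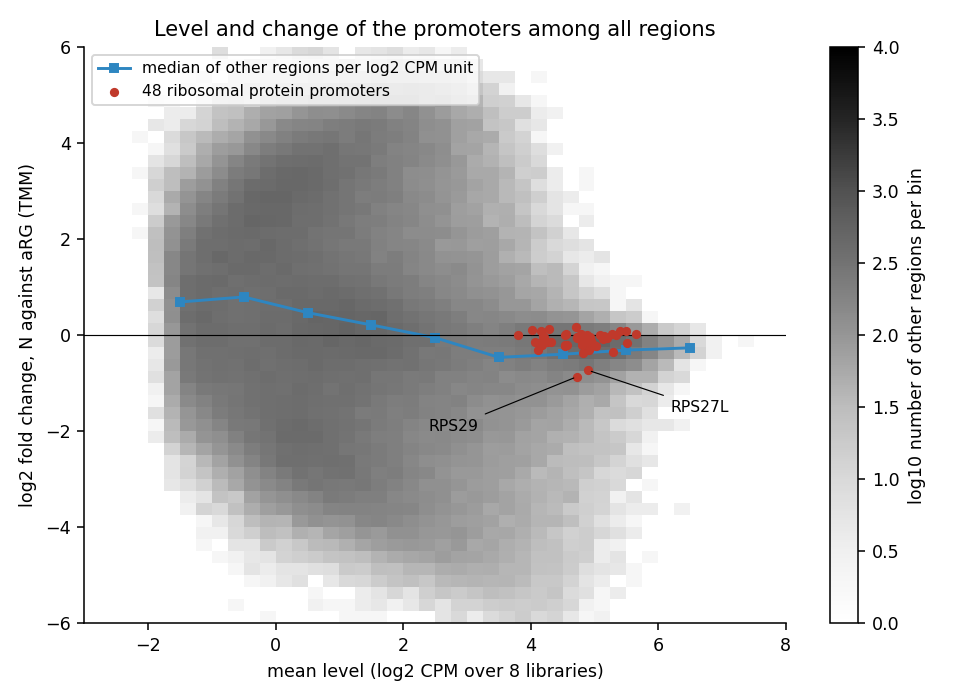
Log2 fold change of N against aRG under TMM scaling (vertical axis) against the mean level over the 8 libraries in log2 CPM (horizontal axis); grey cells count the other regions, the blue squares join their median in each unit of level, and red points are the 48 promoters. The 48 promoters lie near 0, mostly above the blue line, with RPS29 and RPS27L lowest; 177 regions beyond a log2 fold change of 6 in either direction and a few above 8 log2 CPM are not drawn.

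The 5 that fell were RPS29, RPS27L, RPLP2, RPL10A and RPLP1. RPS29, a zinc-binding protein of the small subunit that is mutated in some families with Diamond-Blackfan anaemia, changed most (chr14:30439688-30441907 in panTro6, 2220 bp). It had 19.2 and 18.1 CPM in N, 23.0 and 26.0 in bIP, 29.2 and 29.2 in bRG, and 33.7 and 33.8 in aRG. The 4 populations did not overlap and stood in lineage order. The log2 fold change in edgeR was −0.86 ± 0.12 (SE) for N against aRG (adjusted p = 3.42e-05), −0.46 ± 0.12 for bIP against aRG (adjusted p = 0.00599) and −0.39 ± 0.12 for N against bIP (adjusted p = 0.0151).

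RPS27L (chr15:41589998-41592390, 2393 bp, the widest of the 48 regions) behaved alike. It had 21.5 and 23.5 CPM in N, 23.5 and 26.8 in bIP, 32.3 and 35.4 in bRG, and 36.6 and 37.7 in aRG, with no overlap between either of N and bIP and either kind of radial glia. The log2 fold change in edgeR was −0.72 ± 0.12 for N against aRG (adjusted p = 0.00014) and −0.56 ± 0.12 for bIP against aRG (adjusted p = 0.00196). Its paralogue RPS27 had a log2 fold change of −0.01 ± 0.14 for N against aRG (adjusted p = 0.942).

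RPLP1 and RPLP2 are the acidic proteins of the ribosomal stalk, which brings elongation factors to the large subunit. RPLP2 (chr11:716639-718138) had 34.4 and 34.7 CPM in N, 35.2 and 37.5 in bIP, 42.7 and 41.1 in bRG, and 44.9 and 43.6 in aRG, and in edgeR fell by 0.36 ± 0.10 on the log2 scale in N against aRG (adjusted p = 0.00492). RPLP1 (chr15:47895397-47897364) had 25.9 and 30.4 CPM in N, 24.4 and 28.4 in bIP, 32.8 and 29.6 in bRG, and 35.9 and 33.7 in aRG, and in edgeR fell by 0.31 ± 0.13 (adjusted p = 0.0458). RPL10A, the protein of the other, L1 stalk of the large subunit (chr6:34967691-34969582), had 25.1 and 25.4 CPM in N, 24.6 and 28.0 in bIP, 29.8 and 28.4 in bRG, and 31.9 and 33.1 in aRG, and in edgeR fell by 0.36 ± 0.11 (adjusted p = 0.013). At all 3 genes N and bIP lay below aRG without overlap. The third stalk gene, RPLP0, is not among the measured promoters.

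**Figure D3:**
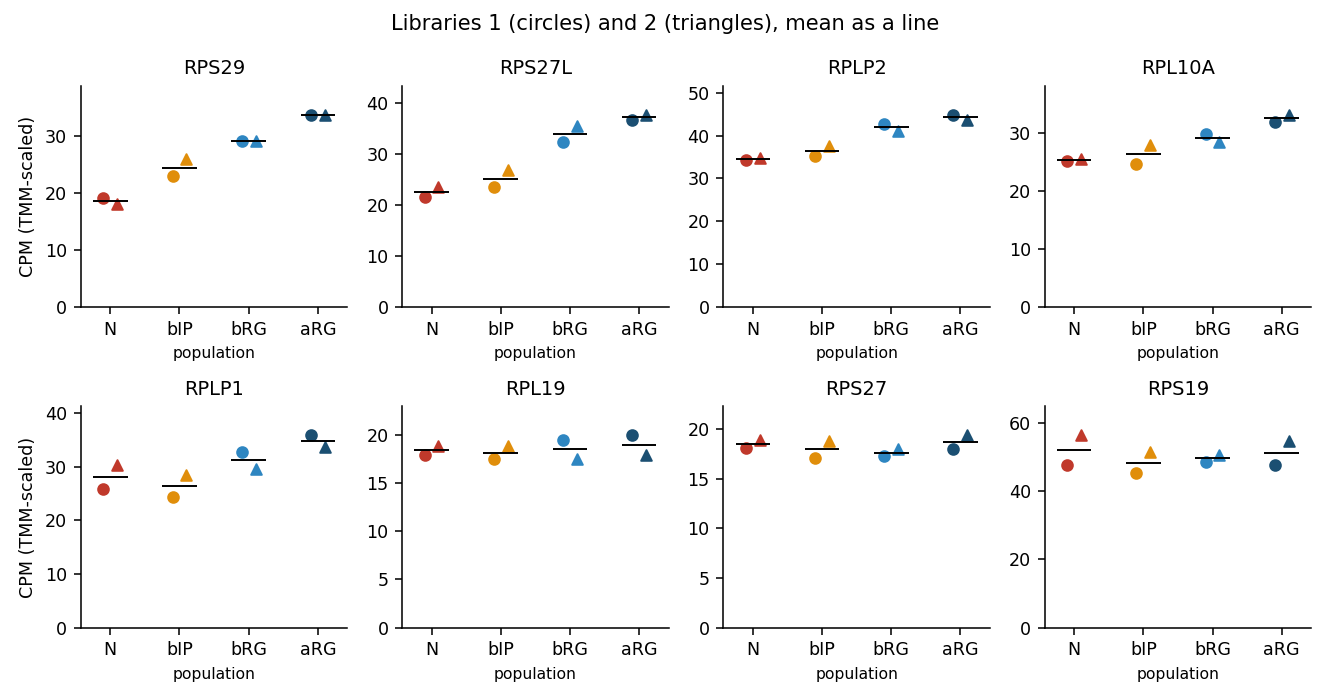
TMM-scaled CPM (vertical axis, from 0) by population for the 5 promoters that fell in N against aRG and the 3 flattest promoters; circles are library 1, triangles library 2 and lines the mean of both. RPS29 is lowest in N, then bIP, bRG and aRG; RPS27L, RPLP2 and RPL10A are lower in N and bIP than in both kinds of radial glia, as is RPLP1 except that its N and bRG libraries overlap; and RPL19, RPS27 and RPS19 show overlapping groups, except that bRG lies below N and aRG at RPS27.

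The 5 regions that fell were all wider than the median, from 1500 bp at RPLP2 up to 2393 bp at RPS27L. Other wide regions were not called, with log2 fold changes of 0.01 at RPL4 (1892 bp), −0.19 at RPS3 (1877 bp) and 0.18 at RPS13 (1806 bp). Over the 48, width and the log2 fold change of N against aRG had a Spearman rho of −0.31 and a Pearson r of −0.49, given as a description, since the points share their libraries. In the authors' peak lists the RPS29 region was covered by peaks over 1434 bp in N, 1978 in bIP, 2055 in bRG and 2045 in aRG. The RPS27L region was covered over 1273 bp in N, 1474 in bIP, 1780 in bRG and 1778 in aRG. The median share of a ribosomal protein promoter region under peaks was 74.9% in N, 79.5% in bIP, 82.3% in bRG and 81.1% in aRG, so the lists also differ in extent as a whole. Whether the lower counts come from the promoter itself or from the flanks inside these wide regions was not tested. RefSeq's chimpanzee annotation (used only for names, since its assembly NHGRI_mPanTro3-v2.0 is another build) places PIDD1 next to RPLP2 and FANCE next to RPL10A, and no other protein-coding gene within 2000 bp of RPS29, RPS27L or RPLP1. Of the 48 genes, 23 have another protein-coding gene within that distance, whose promoter the region may also hold.

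The genes best known for roles beyond protein synthesis did not pass the test for N against aRG. RPL5 and RPL11 form a particle with the 5S ribosomal RNA that is known in human and mouse cells to bind MDM2 and stabilise p53. RPL5 had 27.3 and 27.7 CPM in N, 26.5 and 27.9 in bIP, 26.3 and 26.9 in bRG, and 31.3 and 29.9 in aRG (N against aRG −0.15 ± 0.11 in edgeR, adjusted p = 0.231). RPL11 had 16.0 and 22.4 CPM in N, 15.0 and 19.8 in bIP, 14.9 and 18.5 in bRG, and 15.4 and 20.9 in aRG, with library 2 the higher in each population (0.08 ± 0.22 in edgeR, adjusted p = 0.748). The neuronal libraries at RPL5 lay below those of aRG and overlapped with bIP, while every pair of populations overlapped at RPL11.

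RPS6, the small-subunit protein that S6 kinases phosphorylate downstream of mTOR, had 30.8 and 30.5 CPM in N, 29.4 and 30.4 in bIP, 29.8 and 28.6 in bRG, and 32.5 and 33.6 in aRG (−0.11 ± 0.11 in edgeR, adjusted p = 0.377). RPS3, which lines the entry of the messenger RNA channel, had 21.9 and 23.2 CPM in N, 21.8 and 23.1 in bIP, 23.2 and 21.4 in bRG, and 24.7 and 26.8 in aRG (−0.19 ± 0.13 in edgeR, adjusted p = 0.187). RPL22, a large-subunit protein with a close paralogue, had 27.9 and 32.4 CPM in N, 27.2 and 30.9 in bIP, 29.6 and 32.2 in bRG, and 30.2 and 33.6 in aRG (−0.08 ± 0.12 in edgeR, adjusted p = 0.568). N lay below aRG without overlap at RPS6 and RPS3 and overlapped with it at RPL22. No promoter had a larger positive log2 fold change than RPS13, at 0.18 ± 0.12 in edgeR (adjusted p = 0.186), with 28.7 and 30.1 CPM in N against 24.8 and 26.9 in aRG; it was singled out after its values were seen.

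The steps between the ends of the lineage gave few calls. In bIP against aRG the same 5 promoters fell and none rose, against 47.2% of all regions called (24.5% rose and 22.6% fell) and 42.5% of other gene-start regions. Without library 2 of bIP 8 passed, and without library 1 or 2 of aRG or library 1 of bIP 2 passed. RPLP1 had a log2 fold change of −0.40 in edgeR (adjusted p = 0.0208), RPL10A −0.30 (adjusted p = 0.044) and RPLP2 −0.28 (adjusted p = 0.0277). All 48 log2 fold changes were below 0, with a median of −0.17, against −0.25 at other gene-start regions and 0.05 over all regions, and both bIP libraries lay below both aRG libraries at 28 promoters, or 58.3%, against 36.8% of all regions and 59% of other gene-start regions; at none did they lie above, against 38.7% of all regions. Among the libraries numbered 1, 47 of 48 promoters were lower in bIP than in aRG, and among those numbered 2, 45 were. All these directions rest on the TMM factors. Under the other library scalings described below, the median of the 48 ran from −0.27 to 0.14, on both sides of 0. With the library number as a replicate block in edgeR, 8 promoters fell. This comparison shares its aRG libraries with the comparison of N with aRG, so the 2 sets of calls are not independent.

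In N against bIP, RPS29 was the 1 promoter that fell and none rose, against 47.6% of all regions called (25% rose and 22.6% fell) and 28.3% of other gene-start regions. Leaving out library 1 of N gave 2 promoters that passed, leaving out library 2 of N gave 0 (RPS29 at −0.35 in edgeR), and the library number as a replicate block gave 1 that rose and 1 that fell. The median was 0.06 at the ribosomal protein promoters and −0.01 both at other gene-start regions and over all regions. In bRG against aRG no promoter passed in edgeR, where 3 had an unadjusted p under 0.05; DESeq2 called none either, and the background is 0% of 198227 regions. The median was −0.15, against −0.11 at other gene-start regions and −0.01 over all regions. At 31 promoters, or 64.6%, both bRG libraries lay below both aRG libraries, as at 16.5% of all regions and 39.6% of other gene-start regions; at none did they lie above, against 17% of all regions. The joint test of the 4 populations called 4 of 48, against 73.5% of all regions and 56.7% of other gene-start regions.

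The 2 subunits can be set side by side. In N against aRG, 3 of 27 large-subunit promoters fell, with a median log2 fold change of −0.03, and 2 of 21 small-subunit promoters fell, with a median of −0.13. In bIP against aRG the counts were the same, with medians of −0.16 for the large and −0.20 for the small subunit. No test of the difference between subunits was made.

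The 2 libraries of a population did not give the same share to these promoters. They took 0.130% of the counts of library 1 and 0.146% of library 2 in N, 0.128% and 0.142% in bIP, 0.128% and 0.136% in bRG, and 0.130% and 0.143% in aRG. Library 2 was the higher in every population, and in N, bIP and aRG that step was larger than the difference between any of the populations with the same library number. Gene by gene, library 2 was the higher under TMM at 46 of 48 promoters in N, 46 in bIP, 31 in bRG and 35 in aRG. The share of other gene-start regions instead followed the populations, with 36.16% and 36.15% in N, 36.69% and 38.54% in bIP, 39.09% and 39.24% in bRG, and 39.91% and 40.90% in aRG. Among the libraries numbered 1 the median log2 difference between N and aRG was −0.14 at the ribosomal protein promoters, with 8 higher in N and 40 lower. Among those numbered 2 it was −0.04, with 21 higher and 27 lower.

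**Figure D4:**
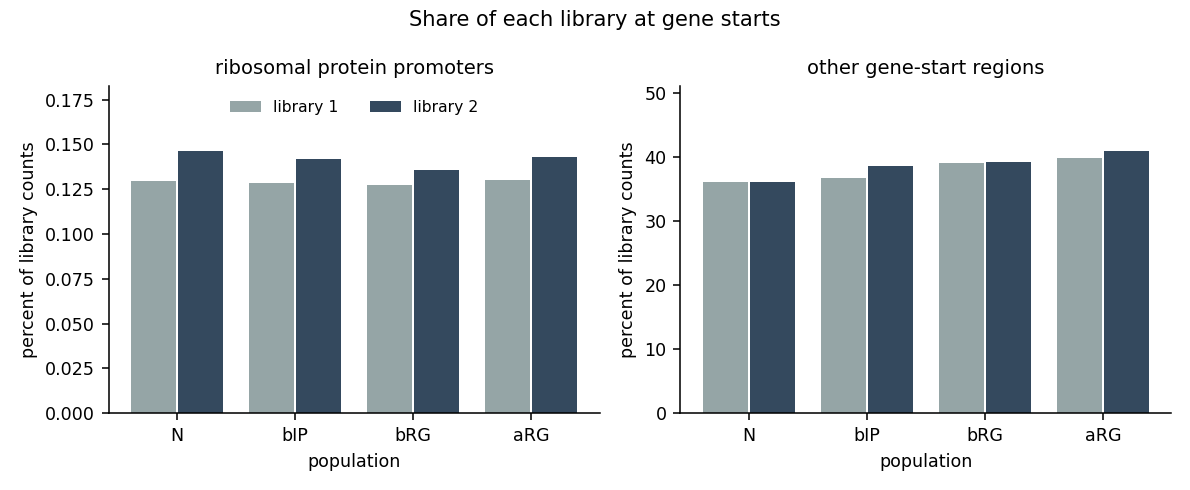
Percent of each library's counts (vertical axes, from 0) in the 48 ribosomal protein promoters (left panel) and in other gene-start regions (right panel), by population, with library 1 in light and library 2 in dark bars. The ribosomal protein promoters take 0.128% to 0.146%, higher in library 2 of each population, while other gene-start regions take between 36.15% (N) and 40.90% (aRG).

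How far the promoters appear to move depends on the scaling of the libraries. TMM, the trimmed mean of log ratios used so far, assumes that most regions do not change; here 69% of regions were called between N and aRG. The median log2 fold change of N against aRG at the ribosomal protein promoters was −0.37 with TMM factors from regions over 50000 bp from a gene, −0.31 with upper-quartile factors, −0.17 with the median of ratios, −0.07 with TMM over all regions, 0.03 with the summed count of these promoters as the library size, 0.05 with library totals alone, 0.19 with TMM factors from other gene-start regions and 0.42 with a loess curve on abundance. With the summed count as library size these promoters add up to the same scaled total in every library. A median near 0 follows from that choice and is no check on how they move as a set. The number that fell was 33, 20, 9, 5, 2, 3, 2 and 1 in the order of scalings above. The number that rose was 0 for the first 5, then 1 with library totals, 9 with factors from other gene-start regions and 36 with the loess curve. The 1 that rose with library totals was RPS13. Other gene-start regions shifted too, with medians of −0.52, −0.47, −0.33, −0.23, −0.12, −0.11, 0.03 and 0.19 in the order of scalings above. The shares of all regions that fell or rose under each scaling are not set beside these counts. The counts are therefore no result about these promoters alone.

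**Figure D5:**
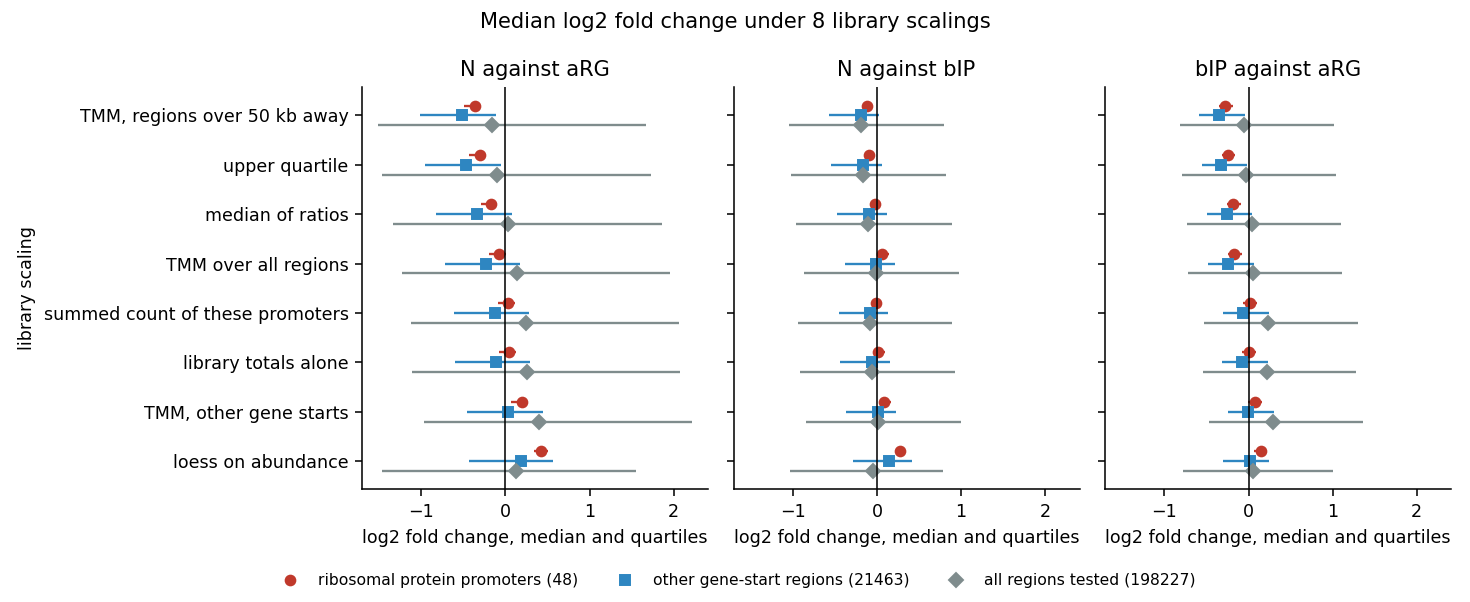
Median (symbol) and quartiles (line) of the log2 fold change (horizontal axis) of the 48 ribosomal protein promoters (red circles), 21463 other gene-start regions (blue squares) and all 198227 regions (grey diamonds) under 8 library scalings (rows), for N against aRG, N against bIP and bIP against aRG. For N against aRG the promoters' median lies between −0.37 in the top row and 0.42 in the bottom row, on both sides of 0, and lies right of other gene-start regions in every row.

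Over these 8 scalings each of the 48 promoters was called at least once in N against aRG: 21 rose under some and fell under others, 15 rose only and 12 fell only. The same count was not made for other regions. RPS29 fell under all 8, with log2 fold changes of −1.15 to −0.34. RPS27L fell under 7 and was not called under the loess curve (−0.22, edgeR adjusted p = 0.106). RPLP2, RPL10A and RPLP1 kept their fall under some scalings and had positive log2 fold changes of 0.11, 0.15 and 0.20 under the loess curve, none of which passed. In bIP against aRG, 34 promoters were never called, 12 fell under some scalings and 2 rose under some. In N against bIP, 33 were never called, 13 rose under some and 2 fell under some. In bRG against aRG none of the 48 was called under any of the 8, with medians of −0.20 to −0.0026, the last with their own summed count as library size.

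The place of the promoters among other regions depended on the kind of scaling, and a single factor per library can hardly change it. A single factor per library shifts all regions together, so the median of the ribosomal protein promoters minus that of all regions stayed between −0.21 and −0.20 for N against aRG under the 7 scalings of that kind, and minus that of other gene-start regions between 0.15 and 0.16. That agreement follows from the arithmetic and is no sign of steadiness. Under the loess curve, which depends on level, these became 0.29 and 0.23. The sign against all regions was thus reversed, while that against other gene-start regions was not. The median of all regions itself was −0.15 with factors from regions over 50000 bp from a gene and 0.40 with factors from other gene-start regions. Regions of like level give another view: among regions with a mean of 4 to 5 log2 CPM, the median log2 fold change under TMM was −0.12 at 34 ribosomal protein promoters and −0.39 at the others, and at 5 to 6 log2 CPM it was −0.01 at 13 and −0.31 at the others.

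The library that TMM takes as its reference mattered as well. With all 8 libraries the software chose library 2 of bIP. With other libraries in that place, a choice made after seeing the data, the number of ribosomal protein promoters that fell in N against aRG was 5 with bIP 1, 11 with N 1, 14 with bRG 1 and 11 with aRG 1, and none rose. The medians were −0.10, −0.19, −0.23 and −0.19 in the same order. A change of reference shifts all regions together, and the shares over all regions are not set beside these counts. The counts are thus no result about these promoters alone.

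Other gene groups of the translation and housekeeping machinery, with regions within 1000 bp of the gene, were counted in the same way under TMM. In N against aRG, nuclear genes of mitochondrial ribosomal proteins had 1 region that rose and 12 that fell among 60, with a median of −0.06. MRPL34, of the large mitochondrial subunit, had 3.78 and 3.60 CPM in N, 5.98 and 7.39 in bIP, 9.65 and 8.92 in bRG, and 8.32 and 10.1 in aRG (−1.31 ± 0.25 in edgeR, adjusted p = 0.000492), and a weak region at MRPS24, of the small mitochondrial subunit, fell by 1.61 ± 0.35 (adjusted p = 0.00116). Proteasome subunits had 1 that fell among 25, the catalytic subunit gene PSMB5 (−0.36 ± 0.11 in edgeR, adjusted p = 0.0108), with a median of −0.06. The 6 regions of ribosomal proteins named outside the rule had none called by edgeR in this comparison, none with an unadjusted p under 0.05 and a median of −0.07.

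Translation initiation and elongation factors had 1 region that rose and 7 that fell among 35, with a median of −0.11. EEF2K, the kinase that inhibits elongation factor 2, had 20.5 and 17.3 CPM in N, 31.8 and 31.7 in bIP, 32.5 and 29.4 in bRG, and 32.2 and 35.2 in aRG (−0.83 ± 0.12 in edgeR, adjusted p = 6.62e-05). The region that rose was a minor one near EIF3E, with under 2 CPM in every library. Ribosome biogenesis and RNA polymerase I genes had 6 that fell among 36 and none that rose, with a median of −0.11. They included UBTF, a transcription factor of the ribosomal RNA genes (−0.39 ± 0.12 in edgeR, adjusted p = 0.0088), and BRIX1, an assembly factor of the large subunit (−0.35 ± 0.11, adjusted p = 0.0124).

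Genes that control ribosomal protein expression and translation had 8 that fell among 18 and none that rose, with a median of −0.19. E2F1, a transcription factor of the cell cycle, had 2.88 and 2.23 CPM in N, 12.6 and 16.2 in bIP, 14.9 and 16.7 in bRG, and 16.6 and 18.7 in aRG (−2.78 ± 0.22 in edgeR, adjusted p = 6.8e-07). MYCN, a MYC-family factor of progenitor growth, had 41.7 and 42.2 CPM in N, 53.9 and 54.4 in bIP, 57.8 and 56.3 in bRG, and 68.7 and 59.6 in aRG (−0.61 ± 0.09 in edgeR, adjusted p = 6.11e-05). At both genes N lay below every other library. These lists are set beside the same background of 31.7% of all regions that fell. Their regions are also part of the other gene-start regions, of which 8497 of 21463 fell and 3569 rose, with a median of −0.23. The share called in either direction was at most 44.4% in any of these lists, against 56.2% of other gene-start regions.

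Regions that carry a ribosomal protein name without being a promoter of the gene were nearer to the whole table in level and in the share called. The 122 tested regions within 1000 bp of a ribosomal protein pseudogene had a median of 1.48 CPM, and in N against aRG 56 rose and 37 fell. Of the 78 tested regions whose closest gene was a ribosomal protein gene over 1000 bp away, 36 rose and 14 fell, and their median level was 2.26 CPM. The share called was 76.2% near pseudogenes and 64.1% at the distant regions, against 69% of all regions (37.2% rose and 31.7% fell), whose median level was 1.86 CPM. The median log2 fold changes were 0.53 near pseudogenes and 0.72 at the distant regions, against −0.07 at the ribosomal protein promoters and 0.13 over all regions.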

How the data were processed

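The deposited values are unscaled read counts for every region in 8 libraries, next to identifiers in 3 species, a closest gene and a distance, as named in the header line of the table. Builds and tools listed in the submitters' processing notes are panTro6, hg38, MACS2 and bcl2fastq 2.20.0; the aligner and the annotation behind the distances are not given in these sources. The authors also deposited a consensus peak list for each population, from which peak positions and each peak's −log10 q-value were taken; whether peaks were called on pooled libraries is not stated. Peak values are the authors' own.

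Regions without a chimpanzee identifier (6725) and 7 repeated identifiers were left out, and edgeR's filterByExpr kept 198227 of 211348. Coordinates are panTro6, counted from 1. CPM values are counts relative to TMM-scaled library size, computed here with edgeR's cpm. Tests used edgeR 4.0.16 (glmQLFit with robust dispersion, 1 fit of the 4 populations, Benjamini-Hochberg adjustment over all regions, threshold 0.05), with DESeq2 1.42.0 as an alternative. The fit was also run on simulated counts in which few regions changed. That run cannot speak for the scaling here, where 69% of regions were called between N and aRG. Each library had at least 24913928 counts, and a median count of 761.5 per promoter gives a counting error of 3.62%, which is smaller than the spread between libraries. Reads without molecular identifiers are not independent molecules, so this covers counting error only.

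The promoters and gene lists were chosen with earlier results of these data known. Genes named in the text are the 5 highest and 5 lowest by CPM per kilobase, up to 5 called in each direction per comparison, the paralogues RPS27L, RPL10L and RPL39L, a set with known further roles, and the 2 called regions with the largest absolute log2 fold change in each other list; RPL19 and RPS27, the flattest, and RPS13 were named after their values were seen. Alternatives were 7 other library scalings, no filter, DESeq2, a library-number term, leaving out each library and, added after seeing the data, other TMM reference libraries. Some genes that this rule takes are not reported here. Promoter sequences were not used here.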

Additional observations from a re-analysis of the deposited data

How the results depend on the processing

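The direction and count of called ribosomal protein promoters depended on the library scaling. Shares over all regions under each scaling are not set beside the counts below. With the promoters' summed count as library size, medians near 0 follow from the scaling itself. In N against aRG the number called was 9 with the median of ratios, 20 with the upper quartile, 11 with TMM from other gene-start regions, 33 with TMM from regions over 50000 bp away, 37 with the loess curve and 2 with the promoters' summed count, against 5 under TMM; the medians that moved beyond the spread between libraries were −0.3074, 0.1937, −0.367 and 0.4192 under the upper quartile, gene starts, far regions and loess. In bIP against aRG the number was 1 with totals, 8 with the upper quartile, 1 with gene starts, 12 with far regions, 2 with loess (both rose) and 1 with the summed count, and the medians were 0.0001 with totals, 0.0737 with gene starts, −0.2744 with far regions, 0.1449 with loess and 0.0124 with the summed count. In N against bIP it was 2 with far regions (median −0.123) and 13 with loess (all rose, median 0.2797). In bRG against aRG, with 0 called throughout, the medians were −0.0553 with totals, −0.0245 with gene starts, −0.201 with far regions, −0.016 with loess and −0.0026 with the summed count. The joint test called 2 with totals, 10 with the upper quartile, 10 with gene starts, 16 with far regions, 33 with loess and 2 with the summed count. Under loess the log2 fold changes of RPLP2 (0.0601), RPL10A (0.0072) in bIP against aRG and of RPLP2 (0.1144), RPLP1 (0.1984) and RPL10A (0.1462) in N against aRG turned positive without passing the test.

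With TMM reference libraries chosen after seeing the data, N against aRG called 11 with aRG 1, 14 with bRG 1 (median −0.2346) and 11 with N 1; bIP against aRG called 12 with N 1; the joint test called 7 with bRG 1 and 8 with N 1. DESeq2 called 2 in bIP against aRG and 2 in the joint test. Same-numbered libraries share a number that the labels do not explain; their deviations from the population means correlated at 0.116 to 0.313 over all regions and at 0.394 to 0.624 over the ribosomal protein promoters. With the library number as a replicate block, bIP against aRG called 8, N against bIP 2 (1 rose and 1 fell) and the joint test 7, and N against aRG stayed at 5.

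Leaving out each library in turn, with a lone library assumed to vary like the other groups, gave 3 to 20 called in N against aRG (medians −0.2516 to 0.0001), 2 to 8 in bIP against aRG (−0.2827 to −0.0869), 0 to 2 in N against bIP (−0.0191 to 0.1453), 0 in bRG against aRG (−0.1902 to −0.0852) and 3 to 10 in the joint test. The 20, the 8 and the 10 came without bIP 2, when TMM's reference changed to bRG 1; the 3 in N against aRG came without aRG 2. Apart from these leave-out fits, RPS29 in N against aRG stayed past the threshold in all 16 alternatives (−1.15 to −0.34) and RPS27L in 15. RPL10A did so in 12, RPLP1 in 11 and RPLP2 in 13. Of the 16, 2 (regions at 0 bp only, and 1 region per gene) select the same promoters from the main fit. Those 2 agree by construction and add no support. With 2 libraries per population the residual degrees of freedom are 4.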
